A study of Rattus norvegicus and Mus musculus with 74 samples.

Results

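Genes for the extracellular part of Wnt signalling were described across 4 histone marks in rat and mouse cortex: the Wnt ligands, the Frizzled receptors, the co-receptors Lrp5 and Lrp6, and the secreted antagonists of the Sfrp, Dkk and Wif1 families. They were taken by gene symbol, with earlier results of these data known when the group was chosen. The rat table held 38 of them among 20110 genes (19 ligands, 9 Frizzled receptors, 2 co-receptors and 8 antagonists). The mouse table held 41 among 23362 genes, the additional ones being Fzd10, Dkk1 and Dkk4. All 38 rat members were also in the mouse table.

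In each species 3 groups were compared, with 3 libraries per mark and group. Sprague-Dawley rats exposed to valproate (VPA) before birth received either TAK-418, which inhibits LSD1, an enzyme that removes methyl groups from H3K4, or vehicle, and the rat controls received vehicle without VPA. C57BL/6J mice with prenatal poly I:C, double-stranded RNA made to imitate a viral infection, received TAK-418 or vehicle, and the mouse controls received vehicle without poly I:C. The labels give no age and do not state whether libraries within a group are different animals, so p-values measure the spread between libraries, which may be technical. The deposited value was a mean signal over a merged region, with no read counts, so depth is unknown and no counting error could be attached.

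Wnt ligands are secreted lipid-modified glycoproteins that bind Frizzled receptors, and together with Lrp5 or Lrp6 they stabilise beta-catenin, which acts with TCF/LEF factors on target genes; other Frizzled signals run through planar cell polarity and calcium. Sfrp proteins, Frzb and Wif1 bind Wnts outside the cell, and Dkk1, Dkk2 and Dkk4 act through the Lrp co-receptors. In the developing forebrain the pathway patterns the cortex along the midline and acts on progenitor division, and in later cortex on axons and synapses. H3K4me3 and H3K9Ac mark active promoters, H3K27me3 is the Polycomb mark of silenced developmental genes, and H3K9me3 marks constitutive heterochromatin. Promoters that carry both H3K4me3 and H3K27me3 are called bivalent where both lie on the same chromatin, which tissue-level signal cannot show.

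The value of a gene came from the region with the highest mean that listed it, so the position of that region decides what the value stands for. Regions of members had a median length of 24699 bp in rat and 26599 bp in mouse, against 11999 bp and 15799 bp over all genes. In 34 of 38 rat members (89.5%) and 38 of 41 mouse members (92.7%) the region spanned the gene start, against 65.8% and 68.7% of all genes. A CpG island lay in the region of 33 rat (86.8%) and 38 mouse members (92.7%), against 68.1% and 69.7% of all genes. The exceptions bear on named genes: rat Fzd7, Fzd8, Lrp5 and Lrp6 took regions centred 71618, 12985, 107131 and 16613 bp from the gene start, and mouse Lrp5, Wnt5b and Dkk4 regions 109765, 59548 and 7244 bp away. Mouse Wnt5b took its value from a region that also lists Fbxl14, so it does not describe the Wnt5b promoter. Among the genes that results turn on, the Fzd1, Fzd4 and Fzd5 regions of rat (rn5 chr4:26373400-26382399, chr1:159889400-159899399 and chr9:71116000-71128199) and the Fzd5 and Frzb regions of mouse (mm10 chr1:64730800-64741599 and chr2:80442800-80450799) each span the gene start and hold a CpG island. The mouse Fzd5 region also lists Ccnyl1. Neighbouring members shared a region and hence a value: Wnt1 with Wnt10b, Wnt6 with Wnt10a, Wnt3a with Wnt9a in both species, and Wnt3 with Wnt9b in rat. In all, 34 distinct rat and 38 distinct mouse regions stood behind the members. At least 1 other gene shared the region of 18 of 38 rat and 26 of 41 mouse members, for example Cdc42 with Wnt4 and Arf1 with Wnt3a. Over all genes this held for 11888 of 20110 in rat and 15858 of 23362 in mouse.

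Promoter sequences were available for 26 of the 38 rat members in the RefSeq table of assembly GRCr8, which is not the rn5 build of the region table. Over 300 bases around the start, members held a median of 26.5 CpG dinucleotides (4 in Frzb to 53 in Wnt4), against 18 over the 11958 genes of the table with a promoter, and 20 of the 26 lay above that median. The TCF/LEF core CTTTGAT, searched on both strands, was in 0 of the 26 promoters and in 2.77% (331) of the table's; no match says only that these letters are not in this window. The promoters of 4 members on which results below turn are shown as the 250 bases before the gene start, 5′ to 3′ on the gene's strand, with CpG dinucleotides in capitals. Fzd5 (27 CpG) carried some of the highest H3K27me3 in rat, and Wnt2b (24 CpG) in mouse. As deposited, both were called higher in H3K4me3 in VPA vehicle rats than in controls, but under neither rescaling. Fzd1 (18 CpG) had the largest H3K9Ac changes, and Wnt8b (5 CpG) ran against the receptors once libraries were centred.
Fzd5, chr9:73614040-73614289, minus strand: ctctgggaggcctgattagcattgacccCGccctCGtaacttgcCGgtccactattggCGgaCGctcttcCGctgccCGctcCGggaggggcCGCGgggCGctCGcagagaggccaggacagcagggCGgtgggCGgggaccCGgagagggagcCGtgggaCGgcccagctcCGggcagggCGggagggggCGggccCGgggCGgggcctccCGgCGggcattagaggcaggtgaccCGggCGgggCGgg
Wnt2b, chr2:195156946-195157195, minus strand: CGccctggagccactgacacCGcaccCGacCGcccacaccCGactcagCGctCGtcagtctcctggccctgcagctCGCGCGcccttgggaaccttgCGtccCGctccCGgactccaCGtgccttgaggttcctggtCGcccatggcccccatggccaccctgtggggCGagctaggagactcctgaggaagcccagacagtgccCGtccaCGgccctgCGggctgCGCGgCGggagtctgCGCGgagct
Fzd1, chr4:30264824-30265073, plus strand: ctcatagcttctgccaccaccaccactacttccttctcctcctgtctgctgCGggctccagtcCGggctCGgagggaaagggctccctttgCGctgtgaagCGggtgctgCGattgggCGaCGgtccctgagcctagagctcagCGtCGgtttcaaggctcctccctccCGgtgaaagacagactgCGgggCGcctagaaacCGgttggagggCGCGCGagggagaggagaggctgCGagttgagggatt
Wnt8b, chr1:253303119-253303368, plus strand: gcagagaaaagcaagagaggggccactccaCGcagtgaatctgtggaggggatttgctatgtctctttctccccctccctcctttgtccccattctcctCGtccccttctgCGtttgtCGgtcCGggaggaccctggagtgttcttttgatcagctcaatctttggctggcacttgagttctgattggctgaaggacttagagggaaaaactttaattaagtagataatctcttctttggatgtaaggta
Across the 26 genes, CpG number and the H3K27me3 percentile in controls were unrelated in rank (Spearman rho -0.00496 across genes, which share libraries and in part regions). Both CpG-rich Fzd5 and CpG-poor Wnt8b stood above the 90th percentile.

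In control cortex most members were high in H3K27me3. Each gene was placed by its percentile of mean signal among all genes of a library, which compares genes on an average per length of region. The median percentile of members was 92.6 ± 0.684 in rat and 92.1 ± 0.520 in mouse (SD over 3 control libraries), where all genes have a median of 50. In rat 25 of 38 members (65.8%) and in mouse 22 of 41 (53.7%) reached the 90th percentile, above which 10% of all genes lie by construction. The ligands of the FGF, BMP and GDF families, another set of developmental signals, had medians of 84.9 ± 0.228 and 86.8 ± 0.655. Among marker genes of cell types, inhibitory neuron markers were at 97.9 in rat and 96.3 in mouse and excitatory neuron markers at 92.3 and 93.4. The other marker lists had lower medians than the members, down to 65.85 for microglia in rat. High H3K27me3 was thus not particular to the Wnt genes. No test was made between the lists, since genes are not replicates and members share regions.

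Ligands carried the highest H3K27me3 of the module, with median percentiles of 94.9 in rat and 95.6 in mouse, and 18 of 19 rat and 17 of 19 mouse ligands had an H3K27me3 interval in all 3 control libraries, against 29.7% and 24.2% of all genes. Rat Wnt1 and Wnt10b, midline signals in one shared region, had a mean signal of 17.3, 21.5 and 8.72 in the 3 control libraries. Mouse Wnt2b, a ligand of the cortical hem, had 6.90, 11.3 and 11.2, and stood at percentile 98.2 ± 0.214. The spread between libraries was large in signal and small in rank, because the libraries differed as a whole. The lowest rat ligands were Wnt2, Wnt4 and Wnt5b, at percentiles 81.5, 82.5 and 83.0, and Wnt2 and Wnt4 were at 84.2 and 83.6 in mouse.

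Frizzled receptors split. Rat Fzd5, a receptor known from eye and synapse development, had 17.3, 24.3 and 9.34 of H3K27me3 in controls and the highest percentile of all members (98.7 ± 0.239), and mouse Fzd5 had 6.70, 8.45 and 8.95 (percentile 97.0). Fzd2 and Fzd9 were also above the 87th percentile in both species, but the rat Fzd2 region nearest to the start was at 53.9. Fzd3, a receptor of axon guidance by planar polarity signals, and Fzd4, the Norrin receptor of brain vessels, were low. Mouse Fzd4 had 1.99, 2.32 and 2.54 and mouse Fzd3 1.96, 2.35 and 2.29, at percentiles 36.1 and 33.1, and rat Fzd3 and Fzd4 were at 55.1 and 67.2. Neither gene had an H3K27me3 interval in all 3 controls of either species. The co-receptor Lrp5 was at percentile 40.6 in rat and 37.4 in mouse, in regions far from its start, and its region nearest to the start was at 76.0 in rat and 92.0 in mouse, so its place depends on the region. Rat Fzd8, also read away from its start, was at 24.7; mouse Lrp6, whose region spans the start, was at 54.3.

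Secreted antagonists resembled the ligands, with medians of 92.3 in rat and 89.7 in mouse. Dkk2 was at 97.2 in rat and 95.4 in mouse, and mouse Dkk1 at 97.2 with 5.98, 9.54 and 9.39. Sfrp4 was lower, at 68.5 in rat and 52.7 in mouse, in a region that lists Epdr1 as well, and rat Dkk3 and Wif1 were at 69.8 and 80.4. Its H3K4me3 was at percentile 78.0 in rat and 84.6 in mouse.

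**Figure D1:**
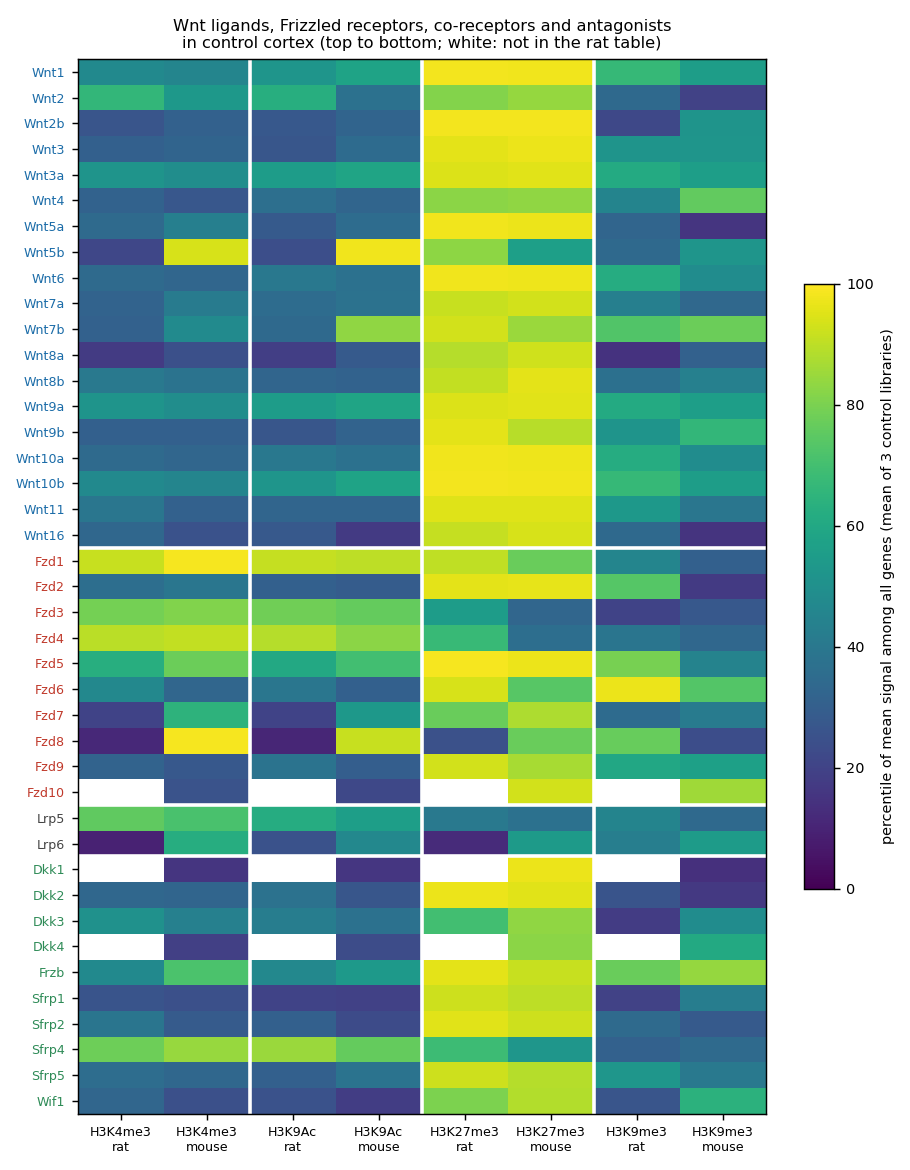
Percentile of mean signal among all genes for each member (rows, grouped from the top as ligands, Frizzled receptors, co-receptors and antagonists) and each mark and species (columns), as the mean of 3 control libraries; the colour scale runs 0 to 100 and white cells are genes of the mouse table only. The H3K27me3 columns are bright for most members, with Fzd3, Fzd4, Lrp5 and Lrp6 among the darker rows (for Lrp5, in a region away from its start), while bright H3K4me3 and H3K9Ac cells are few and mostly Frizzled.

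Active marks were below the middle of the genome for most members. The median H3K4me3 percentile was 35.5 ± 1.35 in rat and 39.2 ± 0.849 in mouse, and that of H3K9Ac 35.4 ± 1.21 and 36.5 ± 0.658. A mean over a long region dilutes a narrow mark: by the highest signal in the region the H3K4me3 medians were 42.1 and 44.2. By that measure the ligands stood above the Frizzled genes, with medians of 48.0 and 42.4 in rat and 54.4 and 44.7 in mouse. The top rat members were Wnt3a with Wnt9a (98.9) and Wnt1 with Wnt10b (98.8). Their regions span 158399 and 101199 bp with 8 and 6 promoters, so the highest signal can lie at the promoter of another gene. A longer region also offers more places for a high value, so this order does not describe the ligand promoters. By region mean the highest rat levels were at receptors, although rat Fzd1 was at 62.2 by highest signal. Rat Fzd1, a receptor for several Wnts, had H3K4me3 of 19.0, 50.1 and 27.9 in controls and Fzd4 20.5, 34.3 and 25.6, at percentiles 91.7 ± 6.70 and 89.7 ± 2.45. In mouse Fzd8, a forebrain receptor, had 40.5, 19.6 and 19.7 and Fzd1 37.1, 20.8 and 18.2, at percentiles 98.7 and 98.5. Rat Fzd8 was at 11.4, but there the region lay 12985 bp from the gene start, so the species cannot be compared for it. The lowest members were rat Lrp6 (1.14, 1.00 and 1.08, in a region of 3399 bp away from its start) and mouse Dkk1 (2.01, 1.51 and 1.42). By region mean, mouse Wnt5b (the Fbxl14 region) was the 1 ligand above the 70th percentile of H3K4me3 in either species, and its region nearest to the start was at 36.8; Wnt2 was the next in both, at 66.2 in rat and 53.2 in mouse.

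H3K4me3 and H3K9Ac ranked the members alike (Spearman rho 0.915 over 38 rat and 0.911 over 41 mouse genes), while H3K4me3 and H3K27me3 did not (0.0157 in rat and -0.378 in mouse). Mouse Wnt7b, a ligand of cortical neurons and vessel growth, had H3K9Ac of 11.1, 9.70 and 7.27 in a region of 210199 bp that also lists Ppara and the microRNA genes Mirlet7b and Mirlet7c-2. It was at percentile 83.2 there, against 47.8 for H3K4me3. By the region nearest to the start the percentiles were 31.8 and 24.3, and by highest signal 99.4 and 96.9, so the gap between the marks rests on the mean over that region. Rat and mouse ranked the members alike for H3K27me3 (rho 0.859 over 38 genes). For H3K4me3 the rho was 0.436, and 0.826 over the 33 genes whose region spans the start in both species. These rank correlations describe genes that share libraries and in part regions.

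Both marks together were the most frequent state. An interval of H3K4me3 and one of H3K27me3 were called in all 3 control libraries for 27 of 38 rat members (71.1%) and 27 of 41 mouse members (65.9%), against 24.1% and 19.2% of all genes, and 57.1% and 61.0% of FGF, BMP and GDF ligands. In rat these were 15 ligands, 5 Frizzled receptors and 7 antagonists, and in mouse 15, 6 and 6. H3K4me3 alone was called at Fzd3, Fzd4, Lrp5, Sfrp4 and Wnt2 in both species, and in mouse also at Dkk3, Fzd1, Fzd8, Lrp6 and Wnt5b. H3K27me3 alone was called at rat Wnt2b, Wnt5b and Wnt8a and at mouse Dkk1, Wnt16 and Wnt8a. Cortex holds many cell types, so both marks may come from the same or from different cells, and the 2 cases cannot be told apart here. Intervals were also called per merged region, which can hold promoters of other genes. The rat region of Wnt3a and Wnt9a, for example, spans 158399 bp with 8 promoters. Regions of members were longer at the median than those of all genes (24699 against 11999 bp in rat). The part of region length in these shares was not tested.

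**Figure D2:**
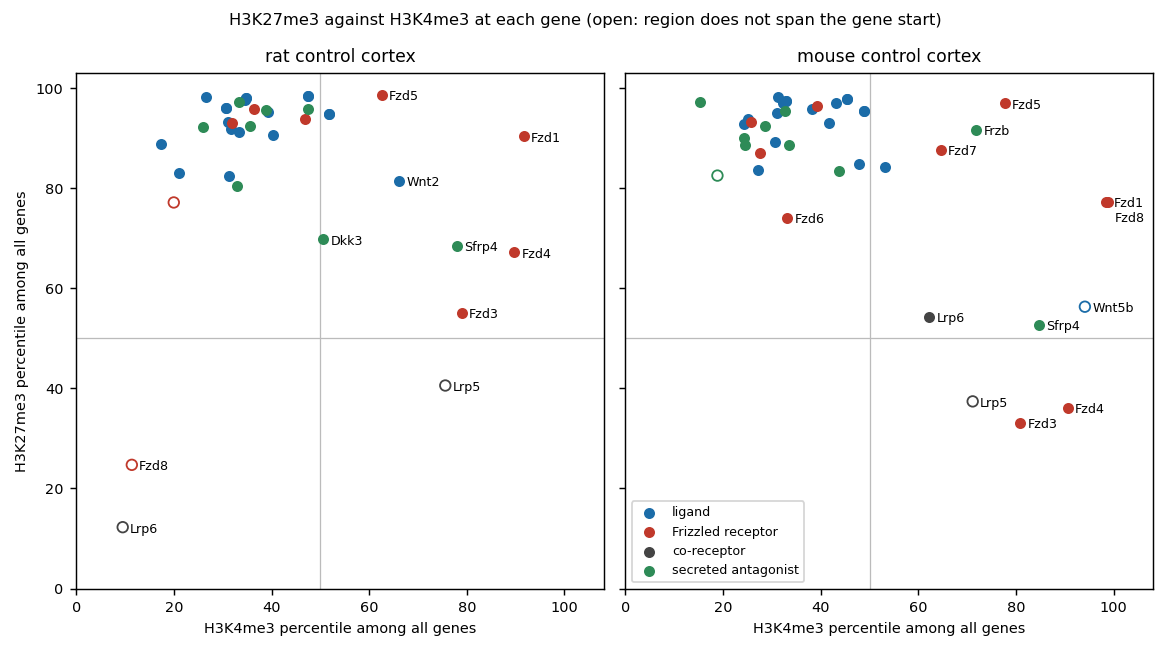
H3K27me3 percentile (vertical) against H3K4me3 percentile (horizontal) among all genes, with 1 point per member, coloured by role, as the mean of 3 control libraries of rat (left) and mouse (right); open points are genes whose region does not span the gene start. Most points crowd above the 80th percentile of H3K27me3 and below the 50th of H3K4me3. Fzd5 is high in H3K27me3 in both species, and Fzd3 and Fzd4 lie further to the right and lower than most.

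H3K9me3 was at the middle of the genome, with median percentiles of 46.7 ± 9.87 in rat and 46.8 ± 10.7 in mouse, and no rat member and 2 of 41 mouse members had an interval in all 3 controls, against 7.82% and 6.76% of all genes. Rat Fzd6, a receptor of hair and epithelial polarity, was highest with 3.21, 3.71 and 3.65 (percentile 96.9), and its region also lists the gene model LOC100911803. Mouse Fzd10 had 4.04, 2.42 and 2.17 and mouse Frzb 3.23, 2.27 and 2.32, at percentiles 85.7 and 84.3.

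The libraries differed as a whole between groups, which bears on all comparisons that follow. Mean signal summed over all merged regions of the table averaged 221421 ± 29976 in VPA TAK-418, 293342 ± 72749 in VPA vehicle and 172000 ± 10384 in control rats for H3K9Ac, and VPA vehicle library 3, at 211103, was below the other 2 of its group. Mouse H3K4me3 and H3K9Ac had their highest sums in control library 1. Excitatory neuron markers had H3K4me3 intervals in all 3 controls at 8 of 8 genes in both species, but so did 73.1% of all rat and 72.7% of all mouse genes, and 7 of 8 also had an H3K27me3 interval, so these intervals do not check the labelled tissue. Differences are given on the log2(signal + 1) scale from limma as deposited, with Benjamini-Hochberg adjustment over all genes with an interval in at least 3 of the 9 libraries of a mark, and again after centring each library on its median and after quantile normalization. Both rescalings remove any change that all regions of a library share, and whether such a shift is of the library or of the tissue cannot be told apart here. The 3 comparisons of a species share libraries. The limma fit pools the spread over all genes tested, and these genes share the shifts of whole libraries. Small p-values as deposited can therefore overstate what 3 libraries per group show.

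In rat cortex 4 Frizzled receptors had less H3K9Ac with TAK-418 than with vehicle as deposited, and none under quantile normalization. Of 34 members tested against VPA vehicle, 4 were lower, against 10.4% of all genes called lower, and the 4 were Fzd1, Fzd4, Fzd5 and Fzd6, out of 7 Frizzled genes tested. The share of members called was thus near that of all genes, and of the FGF, BMP and GDF ligands 8 of 33 were called lower. None of 18 ligands and none of 8 antagonists was called. Median changes were -0.69 for Frizzled genes, -0.51 for ligands and -0.45 for antagonists, against -0.52 over all 15368 genes tested; a difference between the roles was not tested.

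Fzd1 had H3K9Ac of 12.6, 17.0 and 12.1 in VPA TAK-418 libraries, against 32.3, 31.6 and 20.7 in VPA vehicle libraries. The 2 groups did not overlap, which held for 8 of 34 members and 20% of all genes, and control libraries had 13.5, 9.13 and 12.3. The change was -0.96 ± 0.26 (SE; limma adjusted p = 0.0224), and -0.45 after centring (limma adjusted p = 0.0127). Fzd4 had 12.3, 13.5 and 10.2 with TAK-418, against 25.0, 25.5 and 17.1 with vehicle, also without overlap, with changes of -0.85 ± 0.26 (limma adjusted p = 0.0346) and -0.34 after centring (limma adjusted p = 0.0106). Fzd5 and Fzd6 changed by -0.74 and -0.69 (limma adjusted p = 0.0496 each) and, after centring, by -0.23 and -0.18, which did not pass. Centring called 8.16% of all genes lower and 9.21% higher, and under quantile normalization none of the 4 members passed. Wnt8b, a ligand of the cortical hem and hippocampus, had 4.70, 4.73 and 3.76 with TAK-418, against 6.15, 6.93 and 4.03 with vehicle, and these ranges overlap. Its change was -0.29 as deposited (limma adjusted p = 0.234) and 0.22 after centring (limma adjusted p = 0.0435), so its direction depends on the scaling. The count rested on single libraries: without VPA vehicle library 3, 34 members and 96.5% of all genes were called lower, without control library 1 it was 1, and without control library 2 or 3, VPA vehicle library 1 or 2, or VPA TAK-418 library 1 or 3 it was 0.

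**Figure D3:**
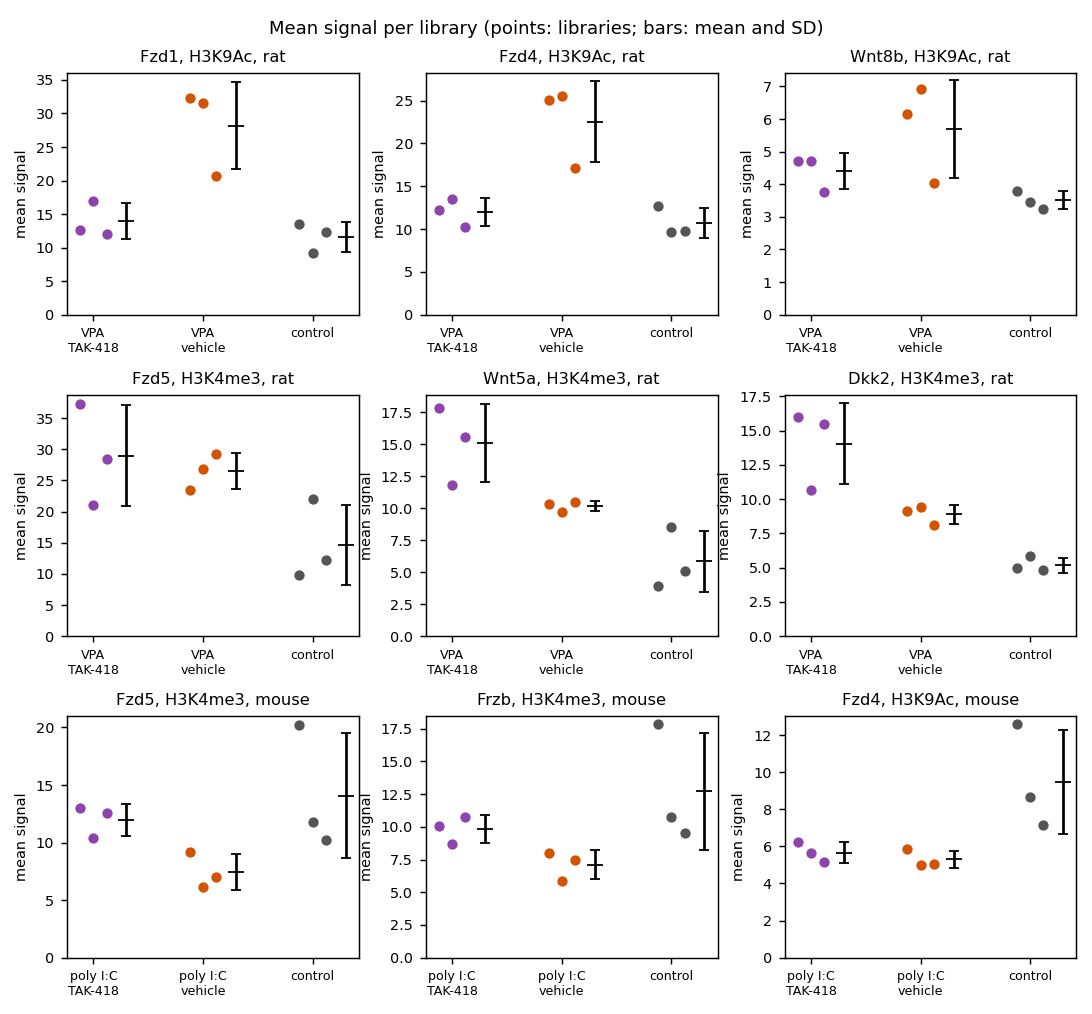
Mean signal in each library (points) with the group mean and SD (bars) for 9 cases of gene, mark and species, with TAK-418 at the left, vehicle in the middle and control at the right of each panel; the vertical axes start at 0. In rat H3K9Ac, Fzd1 and Fzd4 are highest in the 3 VPA vehicle libraries, while in mouse H3K4me3, Fzd5 and Frzb are lowest in the poly I:C vehicle libraries.

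The VPA vehicle rats themselves had more H3K9Ac than controls at 34 of 34 members tested, against 96.5% of all genes. The median change was 0.87 for members and 0.88 for all genes, so the members rose by about as much as all genes. Fzd1 changed most, by 1.20 ± 0.26 (limma adjusted p = 0.000304), with VPA vehicle values of 32.3, 31.6 and 20.7 and control values of 13.5, 9.13 and 12.3. Fzd5 had 17.5, 16.3 and 10.4 in VPA vehicle libraries, against 7.96, 5.50 and 6.36 in controls, a change of 1.03 ± 0.26 (limma adjusted p = 0.000414). After centring, Fzd1 was higher by 0.34 (limma adjusted p = 0.0327) and 4 members were lower, among them the Wnt inhibitor Sfrp1 by -0.36 and Wnt8b by -0.31 (limma adjusted p = 0.0251 and 0.0187), while 11.9% of all genes were called higher and 10.6% lower. No member passed under both rescalings, against 0.722% of all genes. Between VPA TAK-418 and control rats 0 of 34 members were called by limma, as were 0% of all genes. An unadjusted limma p under 0.05 was found for 2 members and for 1445 of 15368 genes. The median was 0.34 and Fzd1 was at 0.24 ± 0.26. Without VPA vehicle library 3, which enters through the shared estimate of spread, 17 were called higher, as were 56.1% of all genes.

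H3K4me3 in rat cortex was higher in both exposed groups. Against control, 4 of 33 members tested rose in VPA vehicle rats (1.64% of all genes were called higher): the receptor Fzd5, the ligands Wnt5a and Wnt2b, and the antagonist Dkk2. Fzd5 had 23.4, 26.8 and 29.3 in VPA vehicle libraries, against 9.77, 22.0 and 12.3 in controls, a change of 0.88 ± 0.23 (limma adjusted p = 0.0277). Wnt5a, the main ligand of the planar polarity branch, had 10.4, 9.73 and 10.5, against 3.92, 8.55 and 5.07 (0.77 ± 0.20, limma adjusted p = 0.0311). Neither gene overlapped between the groups, and the same held for 25 of 33 members and 63.3% of all genes. Dkk2 had 9.16, 9.42 and 8.13, against 4.94, 5.81 and 4.80 (0.68, limma adjusted p = 0.0495), and Wnt2b 4.21, 4.54 and 5.26, against 2.02, 3.36 and 2.89 (0.61, limma adjusted p = 0.0385). After centring, the 4 changes were 0.47, 0.35, 0.27 and 0.19 for Fzd5, Wnt5a, Dkk2 and Wnt2b, and none passed under either rescaling. The count was 0 without control library 1 or 3 or without any 1 of the VPA vehicle libraries, 21 without VPA TAK-418 library 2 (53.8% of all genes), and 27 without control library 2 (54.6% of all genes), whose values are the highest of the controls.

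VPA TAK-418 rats had more H3K4me3 than controls at 32 of 33 members tested, against 85.8% of all genes, with medians of 0.69 and 0.61. By role the medians were 0.69 for 17 ligands, 0.82 for 7 Frizzled genes and 0.65 for 8 antagonists. Wnt5a and Dkk2 changed most, both by 1.27 ± 0.20 (limma adjusted p = 2.08e-07 and 1.61e-07). These p-values rest on a spread pooled over genes that share library shifts, so their size does not measure the spread between the few libraries compared. Wnt5a had 17.9, 11.8 and 15.6 in VPA TAK-418 libraries, above each control library at 3.92, 8.55 and 5.07, and Dkk2 had 16.0, 10.7 and 15.5, above controls at 4.94, 5.81 and 4.80; 23 of 33 members and 57.6% of all genes were higher without overlap. Centred changes were 0.65 and 0.64 and passed under neither rescaling. The count was 19 without control library 1 and 17 without VPA TAK-418 library 1, where 35.8% and 23.3% of all genes were called higher. Between VPA TAK-418 and VPA vehicle rats limma called 0 of 33 members, against 0.137% of all genes called higher. There, 7 of 33 members and 798 of 15287 genes had an unadjusted limma p under 0.05. The median change was 0.23 (0.21 over all genes), and Dkk2 was highest at 0.59 ± 0.20. Without VPA TAK-418 library 2 the number of members called was 3, with 3.33% of all genes.

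H3K27me3, the mark in which the members stood highest, showed no called change in rat. All 33 members tested stayed uncalled in all 3 comparisons, 0% of all genes were called in any, and no member had an unadjusted p under 0.05. Median changes were 0.03 for VPA TAK-418 against vehicle, 0.06 for VPA TAK-418 against control and 0.06 for VPA vehicle against control. The spread was wide: Fzd5 had 21.7, 11.5 and 11.3 in VPA TAK-418, 15.9, 22.2 and 13.8 in VPA vehicle and 17.3, 24.3 and 9.34 in control libraries, with standard errors of 0.48 on the changes. Differences within those errors were not detectable here. The H3K4me3 gains of Fzd5, Wnt5a, Wnt2b and Dkk2 in VPA vehicle rats stood beside H3K27me3 changes of 0.09, 0.15, 0.07 and 0.04, none called.

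H3K9me3 could be tested for 9 rat members. They entered by an interval in at least 3 of the 9 libraries, and no rat member had an interval in all 3 controls. Control libraries had 7704 to 15861 intervals in all, and VPA vehicle libraries 23359 to 28518. The filter can therefore favour genes that are higher in the exposed groups, and without it 0 members were called against control. Against control, 3 rose in VPA vehicle rats (45.6% of all genes were called higher): Fzd8 by 0.49 ± 0.18, Wnt7b by 0.33 ± 0.14 and the antagonist Sfrp5 by 0.25 ± 0.11 (limma adjusted p = 0.0337, 0.0437 and 0.0478). Fzd8 had 2.80, 4.16 and 2.96 in VPA vehicle libraries, against 2.06, 2.27 and 1.83 in controls, in a region that does not span its start. Wnt7b had 2.85, 2.91 and 2.39, against 1.73, 2.10 and 2.05, and after centring its change was -0.14. All were among the 9 of 9 members, and 86% of all genes, without overlap between these groups. With TAK-418, Fzd8 was the 1 member called against control (0.50 ± 0.18, limma adjusted p = 0.0472; 18.1% of all genes), with 4.26, 3.01 and 2.74. Against VPA vehicle limma called 0 of 9 and 0% of all genes, and no member had an unadjusted p under 0.05. None of the calls remained under a rescaling, and leaving out any 1 control library brought both counts to 0, as did leaving out VPA vehicle library 1 or 2. The first count was 9 without VPA TAK-418 library 1, 1 without library 2 and 8 without library 3 of that group, with 85%, 30.3% and 74.1% of all genes. The second was 0 without VPA vehicle library 3 or VPA TAK-418 library 1 or 2, and 8 without VPA TAK-418 library 3, with 75.2% of all genes.

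**Figure D4:**
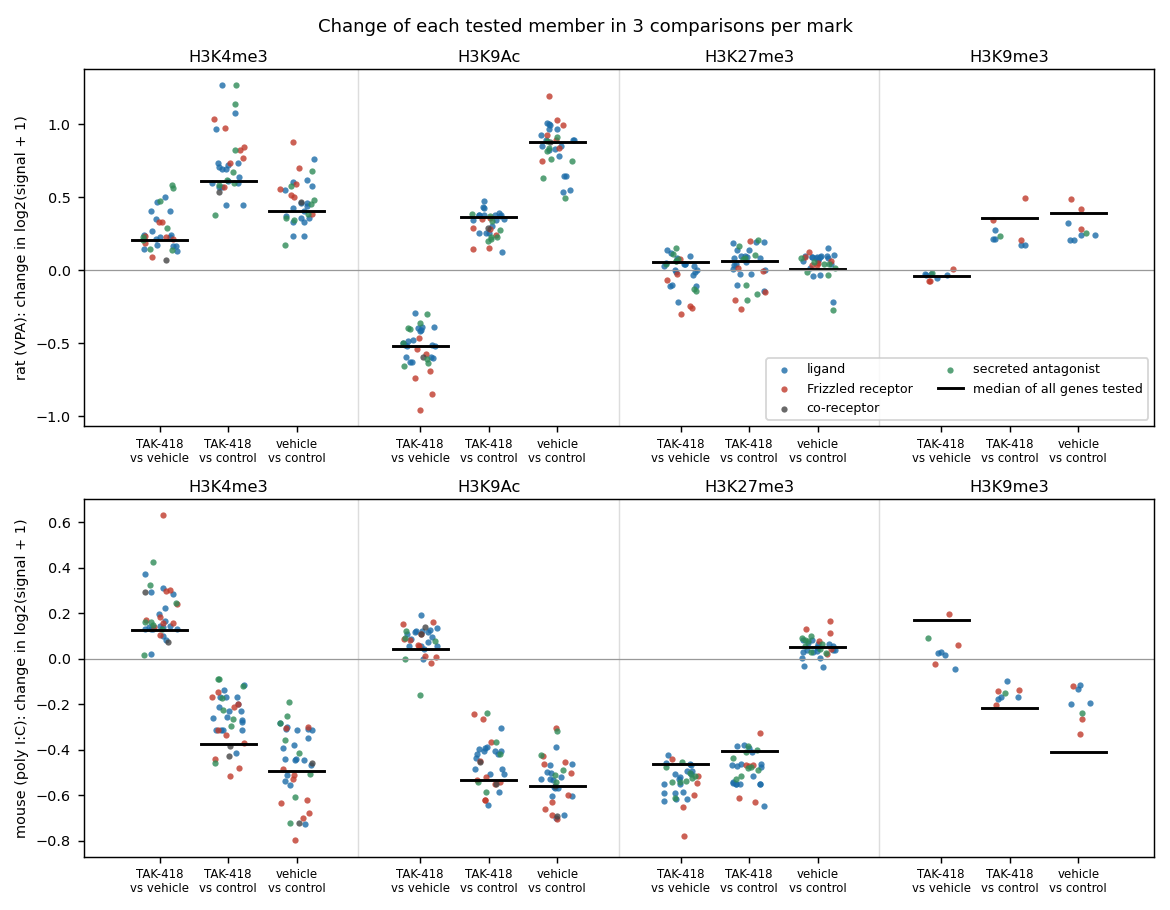
Change in log2(signal + 1) of each member tested (points, coloured by role) for 4 marks and 3 comparisons per mark in rat (top) and mouse (bottom); black bars are the medians of all genes tested. Members lie on both sides of the bars for most H3K4me3 and H3K9Ac comparisons, Fzd1 and Fzd4 lie lowest in rat H3K9Ac under TAK-418 against vehicle, and Fzd5 highest in mouse H3K4me3 under the same comparison.

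In mouse cortex Fzd5 had the largest H3K4me3 change of the members between TAK-418 and vehicle. As deposited limma called 0 of 38 members tested between poly I:C TAK-418 and poly I:C vehicle mice and 0% of all genes. Fzd5 was the 1 member with an unadjusted limma p under 0.05, which 75 of 17446 genes had. Under both rescalings Fzd5 and the Wnt-binding antagonist Frzb were called higher, 2 of 38 members, against 0.396% of all genes. Fzd5 had 13.0, 10.4 and 12.5 in poly I:C TAK-418 libraries, against 9.20, 6.14 and 6.97 in poly I:C vehicle libraries. The groups did not overlap, and the change was 0.63 ± 0.28 as deposited, 0.53 after centring and 0.57 after quantile normalization (limma adjusted p = 0.999, 0.0166 and 0.0137). Frzb had 10.1, 8.69 and 10.7 with TAK-418, against 8.01, 5.84 and 7.47 with vehicle, again without overlap, with changes of 0.42, 0.32 and 0.35 (limma adjusted p = 0.999, 0.0426 and 0.0364). Controls were at 20.2, 11.8 and 10.2 for Fzd5 and 17.8, 10.8 and 9.54 for Frzb. In all, 6 of 38 members and 6.71% of all genes were higher without overlap. Without control library 1, 2 members and 1.4% of all genes were called higher as deposited.

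Against control, mouse H3K4me3 was lower in poly I:C vehicle libraries in all 38 members, with a median of -0.44 against -0.49 over all genes. An unadjusted limma p under 0.05 was found for 18 members and for 7856 of 17446 genes. After adjustment 0 members and 0% of all genes were called. Without control library 3 the count was 30, with 74.3% of all genes called lower. Between poly I:C TAK-418 mice and controls 0 members were called, against 0.00573% of all genes, none had an unadjusted p under 0.05, and the median was -0.26.

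H3K9Ac fell at 30 of 33 members tested in poly I:C vehicle mice against control, where 67.2% of all genes were called lower, with medians of -0.53 and -0.56. These were 15 of 16 ligands, 10 of 10 Frizzled receptors, 3 of 5 antagonists and both co-receptors. Fzd4 had 5.84, 4.98 and 5.07 in poly I:C vehicle libraries, against 12.6, 8.65 and 7.16 in controls (-0.70 ± 0.26, limma adjusted p = 0.0290). Wnt7b had 6.52, 3.88 and 5.82, against 11.1, 9.70 and 7.27 (-0.70 ± 0.26, limma adjusted p = 0.0290). Neither overlapped, as was the case for 29 of 33 members and 75.8% of all genes. After centring the changes were -0.16 for both, and no member passed under either rescaling. The count was 0 without control library 1 or 2 or poly I:C vehicle library 2 or 3, and 19 without poly I:C TAK-418 library 2 (46% of all genes). Mice given TAK-418 did not differ from poly I:C vehicle mice by a call (0 of 33 by limma, 0% of all genes, none with an unadjusted p under 0.05, median 0.09). Against control 0 of 33 and 0% of all genes were called as well, with a median of -0.45, against -0.53 over all genes. An unadjusted limma p under 0.05 was found for 26 members and for 13031 of 16663 genes. Without control library 3 the number of members called was 32 (96.9% of all genes), and without poly I:C vehicle library 2 it was 18 (70.8%).

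Mouse H3K27me3 was lower in TAK-418 libraries at each of 33 members tested, without a call by limma. The median was -0.53 against poly I:C vehicle and -0.48 against control, where all genes had -0.46 and -0.40; 0% of all genes were called and no member had an unadjusted p under 0.05. Fzd5 had 4.25, 5.09 and 5.33 in poly I:C TAK-418, 15.4, 9.87 and 4.72 in poly I:C vehicle and 6.70, 8.45 and 8.95 in control libraries. Wnt2b had 4.53, 6.30 and 6.60 with TAK-418, 17.5, 11.4 and 3.79 with vehicle and 6.90, 11.3 and 11.2 in controls. Vehicle library 3 was the lowest of its group for both genes and library 1 the highest. Without vehicle library 3, 33 of 33 members and 100% of all genes were called lower with TAK-418 than with vehicle. Against control, 21 of 33 members and 60.7% of all genes were lower without overlap. Poly I:C vehicle against control gave a median of 0.05, with 0 members and 0% of all genes called and none at an unadjusted p under 0.05. For H3K9me3 8 mouse members were tested; limma called 0 members and 0% of all genes in each comparison, none had an unadjusted p under 0.05, and the medians were 0.03, -0.16 and -0.20 for TAK-418 against vehicle, TAK-418 against control and vehicle against control.

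Further genes of the pathway were read from a list of 60, from Wnt secretion to the transcription factors, of which 58 were in the rat and 60 in the mouse table. In controls their median H3K27me3 percentile was 66.9 in rat and 67.2 in mouse, and that of H3K4me3 55.4 and 55.1. In rat H3K9Ac, 8 of 55 tested were lower in VPA TAK-418 than in VPA vehicle rats, against 10.4% of all genes, and 3 were called under both rescalings, against 4.07% of all genes in either direction. Tcf7l1 and Lef1, the HMG-box factors that bind beta-catenin on DNA, fell by 0.31 and 0.22 after centring (limma adjusted p = 0.0142 and 0.0304). Tcf7l1 had 7.28, 8.43 and 6.73 with TAK-418, against 15.9, 16.4 and 10.2 with vehicle and 7.22, 5.04 and 5.80 in controls. Lef1 had 6.72, 7.97 and 5.42 with TAK-418, against 13.6, 13.3 and 8.74 with vehicle and 6.57, 5.20 and 5.34 in controls. Both had their 3 highest libraries in the vehicle group, as did Fzd1 and Fzd4. Vehicle libraries lay above control libraries without overlap at 14495 of 15368 genes, and TAK-418 libraries below vehicle libraries at 20%. The shared pattern is therefore not particular to these genes. Prickle2, a planar polarity protein found at synapses, had 15.0, 13.8 and 10.3 with TAK-418, against 15.1, 15.5 and 9.73 with vehicle. Its values overlap, and it was higher by 0.48 only relative to the centred libraries (limma adjusted p = 0.00576). Elsewhere in rat, with the share of all genes in brackets, 54 of 55 pathway genes were higher in H3K9Ac with VPA vehicle against control (96.5%), 55 of 56 in H3K4me3 with VPA TAK-418 against control (85.8%) and 1 of 56 with VPA vehicle against control (1.64%). In H3K9me3, 2 of 9 were higher with VPA vehicle (45.6%) and 1 of 9 with VPA TAK-418 (18.1%) against control, and limma called none in rat H3K27me3. In mouse, 41 of 51 were lower in H3K9Ac with poly I:C vehicle against control (67.2%), and limma called none in the other mouse comparisons. None of these passed under both rescalings.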

How the data were processed

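Chromatin immunoprecipitation of H3K4me3, H3K9Ac, H3K27me3 and H3K9me3 was sequenced in 72 libraries, with 1 pooled input per species that is not part of the values used. The submitters' processing notes name BWA 0.7.12 and the builds rn5 and mm10. No source used here gives the peak caller or the scaling, and library names carry a tag (dm) whose use is not stated. If the signal was scaled to added chromatin, centring and quantile normalization would also remove a true change of a whole library, and this cannot be told apart here. Per the file headers, the deposited values are a mean signal and a highest signal per merged region and library, with a flag for a called interval. All 216 library columns matched a sample (0 did not).

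Genes matching the symbol rule took their listed region of highest mean. Percentiles were ranks among all genes within a library. Changes were fitted with limma 3.58.1 (R 4.3.3; trend and robust) on log2(mean signal + 1), 9 libraries per mark and species, for genes with an interval in at least 3 libraries, with Benjamini-Hochberg adjustment over all genes at 0.05. Such changes understate those of weak regions. The fit was tested on simulated data. The members, the pathway list and the marker lists of cell types were chosen with earlier results of these data known. Named genes were, per mark, the 3 highest and the lowest in controls, the 2 largest called changes each way, and members or pathway genes called under both rescalings; Wnt8b, Sfrp1, Sfrp5 and other members named for context fall outside that rule and were chosen after their values were seen. Alternatives were median centring, quantile normalization, a pseudocount of 0.25, no interval filter, the region nearest to the gene start, a replicate block, the 6 libraries of a comparison alone, leaving out each library, and, added after seeing the data, the highest signal and distinct regions. In centred values replicate numbers did not pair libraries: no mark had all correlations of same-numbered libraries above 0.1. Centring removes shifts of whole libraries, so this check cannot show whether same-numbered libraries shift together. Promoters were taken from RefSeq (GRCr8, rat). The result of 1 marker gene is not reported here.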

Additional observations from a re-analysis of the deposited data

How the results depend on the processing

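Counts of members called moved with the scaling, with other settings and with single libraries. Under median centring they were 0 for rat H3K4me3 with VPA vehicle or VPA TAK-418 against control (4 and 32 as deposited), 5 for rat H3K9Ac with VPA vehicle against control (34 as deposited), 0 for both rat H3K9me3 comparisons against control (3 and 1), 2 for mouse H3K4me3 with TAK-418 against vehicle (0) and 0 for mouse H3K9Ac with vehicle against control (30). Quantile normalization gave 0 for all of these except the mouse H3K4me3 comparison with 2, and 0 for rat H3K9Ac with TAK-418 against vehicle (4). That last count was 2 with a pseudocount of 0.25, 2 without the interval filter, 30 with the replicate block, 27 by highest signal, 9 with distinct regions and 0 with the 6 libraries compared. Without the interval filter, or with the replicate block, rat H3K4me3 with VPA vehicle against control and both rat H3K9me3 counts were 0, and highest signal gave 0 for rat H3K4me3 with VPA vehicle, 2 for rat H3K9me3 with VPA TAK-418 and 0 for mouse H3K9Ac with vehicle, each against control. With the 6 libraries compared, counts were 20 for rat H3K4me3 with VPA vehicle, 9 for rat H3K9Ac with VPA TAK-418, 8 and 0 for rat H3K9me3 with vehicle and TAK-418, and 25 for mouse H3K27me3 with TAK-418, each against control, and 1 for mouse H3K4me3 with TAK-418 against vehicle. The replicate block gave 29 for mouse H3K9Ac with TAK-418 against control. The labels do not state that replicate numbers pair libraries. In centred values, correlations of same-numbered libraries ran from -0.662 to 0.775, and between 1 and 4 of the 9 libraries of a mark correlated best with their own number. Pairing in the shifts of whole libraries, which centring removes, was not tested. Wnt7b in rat H3K9me3 with VPA vehicle against control changed sign, to -0.14 after centring and -0.02 after quantile normalization. The shares of all genes called are not given beside the counts of this paragraph, so these counts do not set the members apart from all genes. The causes were not tested.

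Leaving out 1 library gave 0 to 27 for rat H3K4me3 with VPA vehicle against control, 0 to 3 with TAK-418 against vehicle and 17 to 33 with TAK-418 against control. Rat H3K9Ac ran 32 to 34, 0 to 34 and 0 to 17 in the same order of comparisons, and rat H3K9me3 0 to 9, 0 to 0 and 0 to 8. Mouse H3K4me3 ran 0 to 30, 0 to 2 and 0 to 0, mouse H3K9Ac 0 to 33, 0 to 0 and 0 to 32, and mouse H3K27me3 0 to 0, 0 to 33 and 0 to 0. Rat H3K27me3 and mouse H3K9me3 stayed at 0 in each comparison. The share of all genes called moved as well. It was 96.5% where 34 rat H3K9Ac members were called with TAK-418 against vehicle, without VPA vehicle library 3. It was 54.6% where 27 rat H3K4me3 members were called with VPA vehicle against control, without control library 2. Depth is unknown, so no limit from read number can be given.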

Other observations

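In rat H3K9Ac with VPA TAK-418 against VPA vehicle, the median change was -0.49 for excitatory neuron, -0.41 for inhibitory neuron, -0.35 for astrocyte, -0.45 for oligodendrocyte lineage, -0.45 for microglia, -0.33 for endothelium, -0.16 for choroid plexus and -0.58 for meninges and fibroblast markers, against -0.52 over all genes, and limma called none of these markers as deposited. Under both rescalings 1 of 7 astrocyte markers tested (the glutamate transporter Slc1a3) and 1 of 6 microglia markers (P2ry12) were among those called higher. This compares with 4.07% of all genes called in either direction, and higher is meant relative to the rescaled libraries. With VPA vehicle against control, P2ry12 was lower under both rescalings, 1 of 6 microglia markers tested, against 0.722% of all genes called in either direction. The part of cell composition in the values of Wnt genes was not tested. In control rats the median H3K27me3 percentile was 97.9 for inhibitory neuron and 92.3 for excitatory neuron markers, against 92.6 for the Wnt members.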
